A study of Mus musculus with 10 samples.

Results

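Axon guidance ligands and receptors were described here in cultured mouse Wolffian ducts, the paired embryonic tubes that form the epididymis and vas deferens in males. The members were chosen by gene symbol alone, as the array annotation gives it: class 3 to class 7 semaphorins, plexins, neuropilins, ephrins, Eph receptors, Slits, Robos, netrins, Dcc, Neo1 and every symbol that starts with Unc5. This gave 66 genes, each with 1 probe set, of 19505 genes named among 22206 probe sets. They were 19 semaphorins, 9 plexins, 1 neuropilin (Nrp2), 8 ephrins, 13 Eph receptors, 3 Slits, 3 Robos, 2 netrins, Dcc and Neo1, 4 Unc5 receptors, and 2 genes, Unc50 and Unc5cl, that share only the letters of the Unc5 symbol and are not netrin receptors. Nrp1 and Ntn3 had no probe set under those names and were not analysed here.

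RNA from whole ducts was hybridised to Affymetrix arrays, 1 array per sample. Ducts came from mouse embryos of 16.5 days post-coitum and spent 72 hours in culture at the air-liquid interface. The groups were 4 samples with SAG at 0.5 µM, a smoothened agonist that activates hedgehog signalling, 3 samples with cyclopamine at 25 µM, a smoothened inhibitor, and 3 vehicle samples in culture medium. No strain or transgene is named for any group, the series' design text calls the replicates biological, and the sample titles use the word pronephros where the protocols describe Wolffian ducts. Each compound was given at a single dose, the doses differ, and the labels do not say whether the control medium held the compounds' solvent.

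Axon guidance molecules are cell-surface and secreted cues with matching receptors that steer growing axons and also position epithelial, mesenchymal, muscle and vascular cells. Semaphorins act through plexins, with neuropilins as co-receptors for most class 3 members; ephrins bind Eph receptor kinases on neighbouring cells; Slits bind Robos; and netrins bind Dcc, neogenin and Unc5 receptors. In the mouse urogenital tract, Slit2 and Robo2 restrict where the ureteric bud leaves the nephric (Wolffian) duct, and ephrin-B2 and EphB receptors take part in midline closure of the urethra.

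The deposited values are log2 signals, and array medians ran from 7.55 to 7.70. Hedgehog target genes were used as a check of the treatment labels: Hhip, a hedgehog-binding antagonist that the pathway induces, averaged 16.5 ± 0.34 with SAG (SD, n = 4), 5.99 ± 0.30 with cyclopamine (SD, n = 3) and 11.9 ± 0.80 with vehicle (SD, n = 3). Of 8 hedgehog targets measured, 4 rose with SAG and 5 fell with cyclopamine (limma adjusted p under the threshold of 0.05). Of all probe sets, 0.450% rose with SAG and 2.95% fell with cyclopamine. The other 4 targets were lower with SAG without passing. With cyclopamine 7 of the 8 were lower and 1 was higher, which did not pass. Duct epithelium markers gave clear signals in all groups, and among them Pax2, a nephric duct transcription factor, averaged 8.27 ± 0.20 with SAG, 13.5 ± 1.07 with cyclopamine and 10.001 ± 0.60 with vehicle.

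The balance of cell type markers differed between the groups, so it stands here before the guidance genes. The mean log2 signal of 16 duct epithelium genes ranged from 10.1 to 10.9 over the SAG arrays, from 12.8 to 13.5 over the cyclopamine arrays and from 11.3 to 12.2 over the vehicle arrays. That of 15 smooth muscle genes ranged from 11.7 to 11.8 with SAG, from 9.71 to 10.2 with cyclopamine and from 11.9 to 12.3 with vehicle. For 14 mesenchyme and fibroblast genes the ranges were 14.65 to 14.73 with SAG, 13.09 to 13.62 with cyclopamine and 14.36 to 14.41 with vehicle. With cyclopamine against vehicle, 10 of 16 epithelial markers rose (2.17% of all probe sets). In the same comparison 11 of 15 smooth muscle and 7 of 14 mesenchyme markers fell (2.95% of all probe sets). SAG against vehicle lowered 2 of 16 epithelial markers, Cldn7 and Esrp1 (0.279% of all probe sets), and 0 of the smooth muscle and mesenchyme markers passed. In direction 16 of 16 epithelial markers were lower with SAG (median log2 difference -1.32). Of 11 endothelial genes 1 fell with cyclopamine against vehicle (Kdr), and 11 of 11 were lower (median log2 difference -0.58). Of 11 macrophage genes 2 rose with cyclopamine (Cd14 and Fcer1g), while 7 of the 11 were higher and 4 lower in direction. In the other lists 0 of 9 neuron and glia and 0 of 10 kidney and gonad genes passed. Of the kidney and gonad genes 5 of 10 lay under 5.195, the lower quartile of probe set means, and of the neuron and glia genes 1 of 9 did. The mean of the 9 neuron and glia genes varied widely within groups. It ranged from 6.63 to 8.64 with SAG, from 6.62 to 9.12 with cyclopamine and from 7.695 to 9.315 with vehicle. Against vehicle, 9 of 9 were lower with cyclopamine (median log2 difference -0.82) and 8 of 9 with SAG (-0.63), without passing. The part of these shifts in the results on guidance genes was not tested. In whole ducts, fewer cells of a type and less RNA per cell cannot be told apart.

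**Figure D1:**
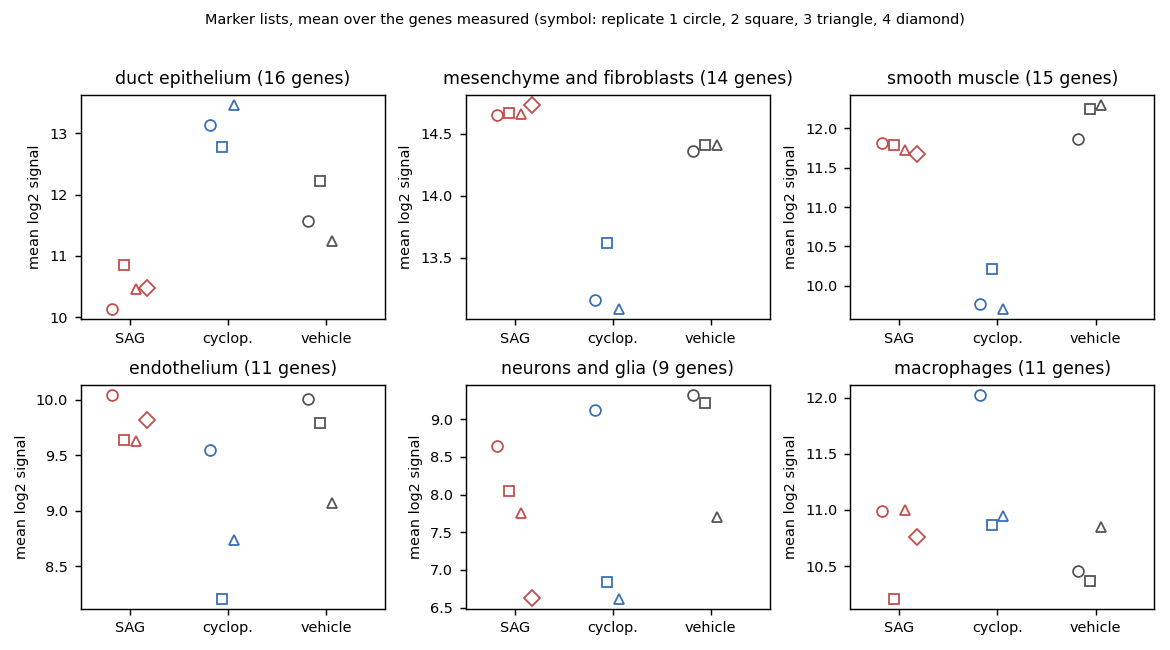
Mean log2 signal of 6 cell type marker lists on each array, grouped as SAG, cyclopamine (cyclop.) and vehicle, with 1 symbol shape per replicate number. The epithelial mean is above 12.7 on every cyclopamine array and under 10.9 on every SAG array, and the smooth muscle and mesenchyme means are lowest on the cyclopamine arrays.

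Most guidance genes gave signals above that of the median probe set. Of the 66, 47 had a mean above 7.62, the median of all probe set means, and 5 (Epha8, Slit1, Ntn4, Unc5a and Robo3) lay under the lower quartile. The highest vehicle means were those of Neo1 (14.9), Efnb2 (14.7), Sema5a (14.7), Slit3 (14.3) and Efnb1 (13.4). Signals of different probe sets depend on their probes as well as on RNA, so this is an order of signals.

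Cyclopamine lowered 2 of 3 Robos, 2 of 9 plexins, 1 of 13 Eph receptors and 1 of 8 ephrins, and raised 2 of 19 semaphorins. The genes that fell were Robo2 (3.14-fold), Plxna2 (2.71-fold), Epha3 (2.35-fold), Robo1 (2.17-fold), Efnb1 (1.70-fold) and Plxna3 (1.61-fold), of which 5 are receptors. Those that rose were Sema3e (1.91-fold) and Sema4b (1.53-fold), both ligands. In limma, with p-values adjusted over the whole array by Benjamini and Hochberg's method, 6 of 66 members (9.09%) fell and 58 did not pass, while 2.95% of all probe sets fell; 2 members (3.03%) rose, while 2.17% of all probe sets rose. At an unadjusted limma p under 0.05, 9 members were higher and 14 lower, beside 8.96% and 9.90% of all probe sets. The median log2 difference was -0.11 over the members and 0.02 over all probe sets. The cyclopamine arrays lay wholly below the vehicle arrays for 17 members (25.8%; 11.9% of all probe sets) and wholly above them for 13 (19.7%; 11.2% of all probe sets). Without vehicle replicate 1 the falls numbered 3 (332 of all probe sets), and without cyclopamine replicate 2 they numbered 10 (773 of all probe sets). With all arrays 654 of all probe sets fell. The rises numbered 0 or 1 in each of the 10 fits that left out 1 array, where 153 to 698 of all probe sets rose.

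SAG moved no guidance gene past the threshold: 0 of 66 passed in either direction in limma against vehicle, where 0.450% of all probe sets rose and 0.279% fell (100 and 62 probe sets, or 126 and 48 once each array was centred on its median). Of the members, 6 were higher and 9 lower at an unadjusted limma p under 0.05, beside 5.25% and 5.51% of all probe sets. The smallest adjusted p was that of Efnb1, 0.0896 in limma, for a log2 difference of 0.60 with a 95% interval of 0.30 to 0.91. The SAG arrays lay wholly above the vehicle arrays for 6 members (9.09%; 6.25% of all probe sets) and wholly below them for 10 (15.2%; 6.63% of all probe sets). The median log2 difference was -0.05 over the members and 0.01 over all probe sets. Without SAG replicate 1, Efnb2 fell (log2 difference -0.88, limma adjusted p = 0.0300).

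Set directly against each other, the compounds separated 15 members. With SAG against cyclopamine 10 were higher (15.2%; 5.42% of all probe sets): Robo2, Plxna2, Sema6d, Efnb1, Epha3, Slit3, Efnb3, Ephb3, Plxna3 and Efna2. The 5 that were lower (7.58%; 5.92% of all probe sets) were Sema4d, Sema3d, Efnb2, Sema4b and Slit2, all ligands, and this share is near that of all probe sets. They numbered 3 when any of vehicle replicate 1, SAG replicates 2 and 4 and cyclopamine replicate 1 was left out. In those fits 949 to 1198 of all probe sets were lower, beside 1315 with all arrays. All 3 comparisons draw on the same 10 arrays, and both compounds were set against the same 3 vehicle arrays, so their lists share data. At an unadjusted p under 0.05 limma put 16 members higher and 11 lower, beside 11.5% and 11.9% of all probe sets. Of the 66 genes, 17 passed in at least 1 comparison, 6 passed both with cyclopamine against vehicle and with SAG against cyclopamine, and 49 passed in none.

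For 3 members, Plxna2, Efnb1 and Ephb3, every SAG array lay above every vehicle array and every cyclopamine array below them (1.15% of all probe sets). For 2 members, Sema4b and Sema4d, every SAG array lay below every vehicle array and every cyclopamine array above them (1.21% of all probe sets). Robo1 and Sema5a were on the low side of vehicle in every SAG array and every cyclopamine array, and Slit1 was on the high side in every array of both. The share of all probe sets with such same-side patterns was not computed, and both compounds were set against the same vehicle arrays.

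**Figure D2:**
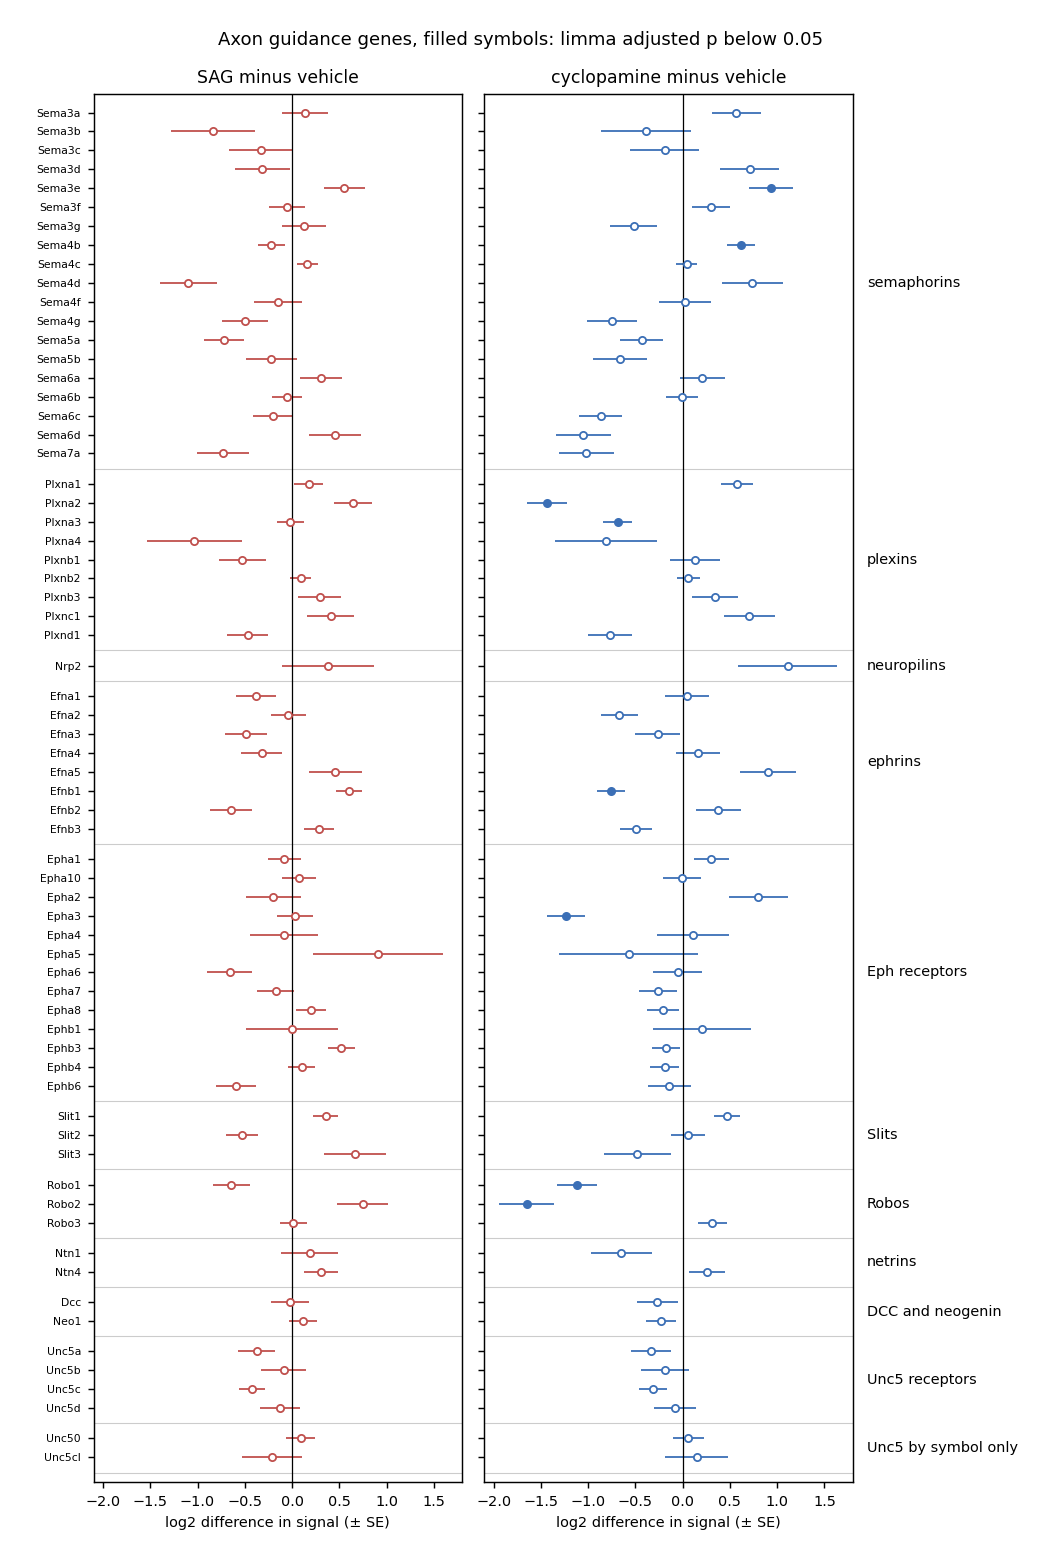
Log2 difference in signal (± SE) for each of the 66 guidance genes, grouped by family, with SAG minus vehicle on the left and cyclopamine minus vehicle on the right. Filled symbols passed the limma threshold: 0 in the SAG panel and 8 in the cyclopamine panel, the lowest being Robo2 at -1.65.

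The stretches of DNA upstream of the genes that fell with cyclopamine are shown because hedgehog signalling acts through GLI transcription factors, whose binding site is known. RefSeq promoter windows of assembly GRCm38.p6 were matched for 56 of the 66 members, with 69 annotated starts, and the 250 bases before each start were searched on both strands. Below are the windows of 4 of the 6 genes that fell, namely the 4 largest falls among genes with a single annotated start in that table, each written 5′ to 3′ on the gene's strand, with capitals for the GLI core, CCACCC on the gene's strand. Read from the opposite strand the core is GGGTGG.
Plxna2, chr1:194619579-194619828, plus strand: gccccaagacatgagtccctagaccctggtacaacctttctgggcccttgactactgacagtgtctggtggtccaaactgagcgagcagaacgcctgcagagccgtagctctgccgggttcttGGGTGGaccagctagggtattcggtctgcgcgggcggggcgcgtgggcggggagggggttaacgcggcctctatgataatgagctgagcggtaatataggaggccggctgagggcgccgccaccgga
Epha3, chr16:63864176-63864425, minus strand: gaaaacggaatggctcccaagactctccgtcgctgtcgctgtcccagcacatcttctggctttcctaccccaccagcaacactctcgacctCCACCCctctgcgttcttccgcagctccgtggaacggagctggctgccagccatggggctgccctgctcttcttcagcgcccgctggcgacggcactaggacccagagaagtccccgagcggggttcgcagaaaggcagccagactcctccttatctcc
Efnb1, chrX:99135811-99136060, plus strand: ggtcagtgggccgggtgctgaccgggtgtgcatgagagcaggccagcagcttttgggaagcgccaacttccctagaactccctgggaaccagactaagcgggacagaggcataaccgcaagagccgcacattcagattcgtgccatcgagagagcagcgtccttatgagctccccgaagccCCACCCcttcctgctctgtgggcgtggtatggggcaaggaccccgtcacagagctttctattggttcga
Robo1, chr16:72662899-72663148, plus strand: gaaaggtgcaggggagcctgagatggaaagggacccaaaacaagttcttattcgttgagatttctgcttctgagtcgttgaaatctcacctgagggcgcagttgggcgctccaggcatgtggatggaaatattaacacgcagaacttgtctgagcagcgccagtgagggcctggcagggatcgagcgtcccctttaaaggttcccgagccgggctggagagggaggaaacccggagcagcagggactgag

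The core match lay 127 bases before the start in Plxna2, 159 in Epha3 and 69 in Efnb1, and these letters are not in the Robo1 window. Over all member windows, 36 of 69 (52.2%) held CCACCC, against 28.1% of 32851 windows in the RefSeq table, and 51 of 69 (73.9%) held the GC box GGGCGG, against 32.7%. The member windows were also richer in G and C, with a median of 64.8% against 52.4%. The 9-base GLI site GACCACCCA, which holds the core within it, was in 0 of 69 member windows and in 0.225% of all windows. Of the 8 windows of genes that fell with cyclopamine, 5 (62.5%) held the core, and of the 58 windows of members that did not pass, 30 (51.7%) did. A match of letters describes the window and is not a binding site.

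The Slit and Robo group held the member with the largest change with cyclopamine. Robo2, a receptor for Slits, had log2 signals of 6.44, 6.31 and 5.84 on the cyclopamine arrays, against 7.89, 8.15 and 7.49 on the vehicle arrays. All 3 cyclopamine arrays lay more than a log2 unit below the lowest vehicle array. The difference was -1.65 ± 0.29 (SE, limma adjusted p = 0.00965). The SAG arrays gave 9.004, 9.008, 8.31 and 8.04 for Robo2, of which 3 lay above all vehicle arrays and 1 among them; the difference from vehicle was 0.75 ± 0.27 (SE, limma adjusted p = 0.322). With SAG against cyclopamine Robo2 was 5.27-fold higher (log2 difference 2.40 ± 0.27, limma adjusted p = 0.000272), and the 2 groups were far from overlapping.

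Robo1, the other widely studied Slit receptor, lies next to Robo2 on chromosome 16 with 0 protein-coding genes between them. It had 8.02, 8.17 and 8.08 on the cyclopamine arrays, against 9.23, 9.31 and 9.08 on the vehicle arrays. The difference was -1.12 ± 0.21 (SE, limma adjusted p = 0.0140), and the 2 groups did not overlap. On the SAG arrays Robo1 had 8.39, 9.04, 8.74 and 8.11, each below the lowest vehicle array though replicate 2 was close to it. This difference of -0.64 ± 0.20 did not pass (limma adjusted p = 0.226), and neither did SAG against cyclopamine (0.48 ± 0.20, limma adjusted p = 0.168). The cyclopamine call was lost without vehicle replicate 1 or vehicle replicate 2, with adjusted p values up to 0.0556. Robo3, a divergent Robo that in mammals does not bind Slits, had means of 5.01 ± 0.09 with SAG (SD, n = 4), 5.31 ± 0.01 with cyclopamine (SD, n = 3) and 4.996 ± 0.29 with vehicle (SD, n = 3), near the array's lower quartile.

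The 3 Slits, secreted ligands of the Robos, went different ways. Slit3 had 15.3, 14.8, 14.8 and 14.8 on the SAG arrays, 13.7, 14.7 and 13.0 on the cyclopamine arrays and 14.3, 14.0 and 14.5 on the vehicle arrays. Every SAG array lay above every other array, while the cyclopamine arrays were spread from below to above the vehicle arrays. The difference of SAG against cyclopamine was 1.15 ± 0.33 (SE, limma adjusted p = 0.0490). The cyclopamine difference from vehicle, -0.48 ± 0.35 (limma adjusted p = 0.513), rested on which arrays entered. Without cyclopamine replicate 2 it was -0.95 (limma adjusted p = 0.0475), and SAG against cyclopamine became 1.61 (limma adjusted p = 0.00118). The SAG against cyclopamine call was lost when any other single array was left out, to 0.74 (limma adjusted p = 0.154) without cyclopamine replicate 3.

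Slit2, the ligand best known for Robo2 in the kidney field, gave signals near the array's lower quartile. It had 5.27, 5.50, 5.56 and 4.95 on the SAG arrays, 5.98, 6.01 and 5.74 on the cyclopamine arrays and 5.65, 5.87 and 6.05 on the vehicle arrays. All SAG arrays lay below all others, and the cyclopamine and vehicle arrays overlapped. The SAG mean was 1.51-fold lower than the cyclopamine mean (log2 difference -0.59 ± 0.17, limma adjusted p = 0.0494). That call was kept only without SAG replicate 3 among the fits that left out 1 array, with adjusted p values from 0.0477 to 0.142. Against vehicle the SAG difference was -0.53 ± 0.17 (limma adjusted p = 0.250). Slit1 lay lower still, with 4.40, 4.56, 4.68 and 4.36 on the SAG arrays, 4.52, 4.57 and 4.75 on the cyclopamine arrays and 4.22, 3.97 and 4.25 on the vehicle arrays. Its arrays with either compound were all above the vehicle arrays, and no difference passed (0.47 ± 0.14 with cyclopamine against vehicle, limma adjusted p = 0.0942).

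**Figure D3:**
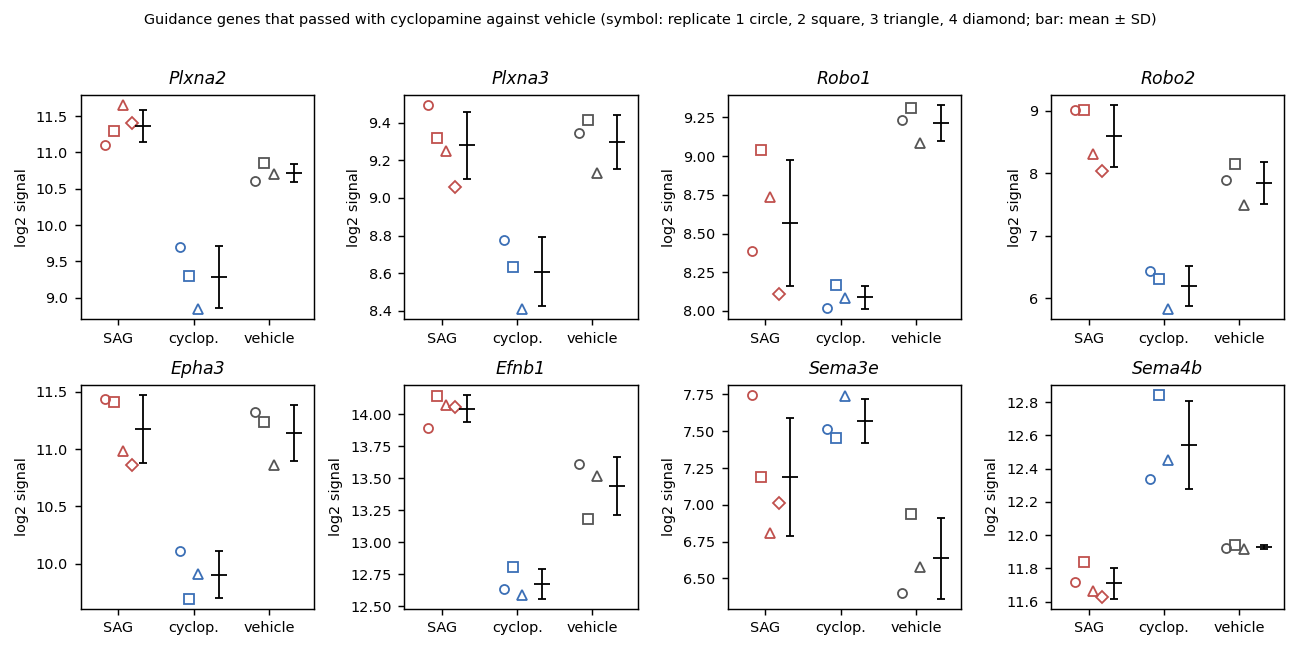
Log2 signal on each array for the 8 guidance genes that passed with cyclopamine against vehicle, with SAG, cyclopamine (cyclop.) and vehicle side by side, 1 symbol shape per replicate number and a bar for the mean ± SD. The cyclopamine arrays lie below all vehicle arrays for Plxna2, Plxna3, Robo1, Robo2, Epha3 and Efnb1 and above them for Sema3e and Sema4b.

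Among the plexins, the receptors for semaphorins, 2 of 9 fell with cyclopamine and 0 rose. Plxna2, a receptor for class 6 semaphorins and a partner of neuropilins, had 9.70, 9.30 and 8.85 on the cyclopamine arrays, against 10.6, 10.9 and 10.7 on the vehicle arrays. The groups were well apart, and the difference was -1.44 ± 0.21 (SE, limma adjusted p = 0.00473). It had, on the SAG arrays, 11.1, 11.3, 11.6 and 11.4, each above the highest vehicle array. That difference, 0.64 ± 0.20, did not pass (limma adjusted p = 0.235). Relative to cyclopamine, SAG gave a signal 4.22-fold higher (log2 difference 2.08 ± 0.20, limma adjusted p = 0.000111), the smallest adjusted p among the members.

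Plxna3, which with neuropilin-2 transmits class 3 semaphorin signals, had 8.78, 8.63 and 8.41 on the cyclopamine arrays, against 9.35, 9.41 and 9.13 on the vehicle arrays. Again the groups did not overlap, and the difference was -0.69 ± 0.16 (SE, limma adjusted p = 0.0321). On the SAG arrays it had 9.49, 9.32, 9.25 and 9.06, on both sides of the vehicle arrays, with a difference of -0.02 ± 0.15 (limma adjusted p = 0.981). Its signal was 1.59-fold higher with SAG against cyclopamine (log2 difference 0.67 ± 0.15, limma adjusted p = 0.0128). The call against vehicle was lost when vehicle replicate 1, vehicle replicate 2, SAG replicate 2, SAG replicate 3 or cyclopamine replicate 3 was left out, with adjusted p values up to 0.112, and without cyclopamine replicate 3 the adjusted p with SAG against cyclopamine was 0.0559. The other 7 plexins passed in no comparison in the main fit to all arrays. Plxna1 passed as higher with cyclopamine against vehicle after quantile normalization of all arrays. Plxnb1 passed with SAG against cyclopamine when SAG replicate 1 was left out. With cyclopamine against vehicle Plxna1 (0.58), Plxnb3 (0.34) and Plxnc1 (0.71) had non-overlapping higher arrays and Plxnd1 (-0.77), the receptor for Sema3e, non-overlapping lower ones.

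Nrp2, a co-receptor that binds class 3 semaphorins with plexins and also vascular growth factors, had the largest SD of these receptors within the cyclopamine group, 1.35. It had 9.52, 10.3 and 7.67 on the cyclopamine arrays, against 8.26, 7.76 and 8.14 on the vehicle arrays. Cyclopamine replicates 1 and 2 lay above every vehicle array and replicate 3 below them all. The difference of 1.11 ± 0.52 did not pass (SE, limma adjusted p = 0.282). Nrp2 had, on the SAG arrays, 8.94, 8.13, 8.38 and 8.28, overlapping the vehicle arrays (0.38 ± 0.49, limma adjusted p = 0.837). Without cyclopamine replicate 3 it passed in the fits of cyclopamine against vehicle and of SAG against cyclopamine.

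Of the 19 semaphorins, 2 rose with cyclopamine and 0 fell. Sema3e, a secreted ligand of plexin D1, had 7.51, 7.45 and 7.74 on the cyclopamine arrays, against 6.40, 6.94 and 6.57 on the vehicle arrays. The groups did not overlap, and the difference was 0.93 ± 0.23 (SE, limma adjusted p = 0.0453). On the SAG arrays Sema3e had 7.74, 7.19, 6.81 and 7.01, of which 3 lay above the vehicle arrays (0.55 ± 0.22, limma adjusted p = 0.379). The cyclopamine call was kept only without SAG replicate 1 or SAG replicate 3, and the adjusted p ran from 0.0170 to 0.155 over the fits without 1 array.

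Sema4b, a transmembrane semaphorin, had 12.3, 12.8 and 12.5 on the cyclopamine arrays, against 11.9, 11.9 and 11.9 on the vehicle arrays. The vehicle arrays were nearly identical and all cyclopamine arrays lay above them (0.62 ± 0.15, SE, limma adjusted p = 0.0399). Its values on the SAG arrays, 11.7, 11.8, 11.7 and 11.6, were all below the vehicle arrays (-0.22 ± 0.14, limma adjusted p = 0.630). With SAG against cyclopamine it was 1.78-fold lower (log2 difference -0.83 ± 0.14, limma adjusted p = 0.00288). The call against vehicle was kept only without cyclopamine replicate 1, with adjusted p values from 0.0412 to 0.114 over the fits without 1 array.

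Sema4d, a transmembrane ligand of plexin B1, showed the same order with larger differences. It had 7.01, 8.26, 8.28 and 7.997 on the SAG arrays, 10.2, 9.35 and 9.65 on the cyclopamine arrays and 9.12, 9.09 and 8.74 on the vehicle arrays. None of the 3 groups overlapped, with SAG lowest and SAG replicate 1 lowest of all. The SAG mean was 3.57-fold lower than the cyclopamine mean (log2 difference -1.83 ± 0.30, limma adjusted p = 0.00284). Against vehicle the differences were -1.10 ± 0.30 with SAG (limma adjusted p = 0.172) and 0.74 ± 0.32 with cyclopamine (limma adjusted p = 0.252).

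Sema6d, a transmembrane ligand of plexin A receptors, ran the other way. It had 12.1, 11.9, 12.1 and 11.3 on the SAG arrays, 10.755, 9.82 and 10.5 on the cyclopamine arrays and 11.6, 11.7 and 10.9 on the vehicle arrays. The cyclopamine arrays were lowest and did not overlap the others, while the SAG and vehicle arrays overlapped. Relative to cyclopamine, SAG gave a signal 2.84-fold higher (log2 difference 1.51 ± 0.28, limma adjusted p = 0.00516), and against vehicle cyclopamine gave -1.05 ± 0.29 (limma adjusted p = 0.0712).

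Sema3d, a secreted class 3 ligand whose gene lies beside Sema3a, had 10.2, 9.32, 9.77 and 9.78 on the SAG arrays, 11.3, 10.5 and 10.5 on the cyclopamine arrays and 9.92, 9.67 and 10.7 on the vehicle arrays. SAG and cyclopamine arrays did not overlap, and vehicle replicate 3 lay among the cyclopamine arrays. Its signal was 2.04-fold lower with SAG against cyclopamine (log2 difference -1.03 ± 0.29, limma adjusted p = 0.0471). That call was kept when vehicle replicate 2, vehicle replicate 3, SAG replicate 1 or cyclopamine replicate 2 was left out and lost when any of the other 6 arrays was, with adjusted p values up to 0.173.

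Sema5a, a transmembrane semaphorin with thrombospondin repeats, had 14.5, 14.0, 13.7 and 13.6 on the SAG arrays, 14.3, 13.9 and 14.5 on the cyclopamine arrays and 14.5, 14.7 and 14.8 on the vehicle arrays. The vehicle arrays were highest without overlap. Neither difference from vehicle passed, at -0.72 ± 0.21 with SAG (limma adjusted p = 0.208) and -0.43 ± 0.23 with cyclopamine (limma adjusted p = 0.346). Of the other 13 semaphorins, Sema3a (0.57) had non-overlapping higher cyclopamine arrays. Sema3g (-0.52), Sema5b (-0.67), Sema6c (-0.87) and Sema7a (-1.02) had non-overlapping lower ones. None of these passed in the main fit to all arrays. In alternative fits to all arrays, Sema6c passed as lower with cyclopamine against vehicle, under the filter on dim probe sets and under array weights. With array weights it also passed as higher with SAG against cyclopamine. When 1 array was left out, Sema6c passed with cyclopamine against vehicle and with SAG against cyclopamine (without SAG replicate 1 or cyclopamine replicate 2), Sema4g and Sema7a with cyclopamine against vehicle (without cyclopamine replicate 2 and without vehicle replicate 3), and Sema3b with SAG against cyclopamine (without cyclopamine replicate 2).

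**Figure D4:**
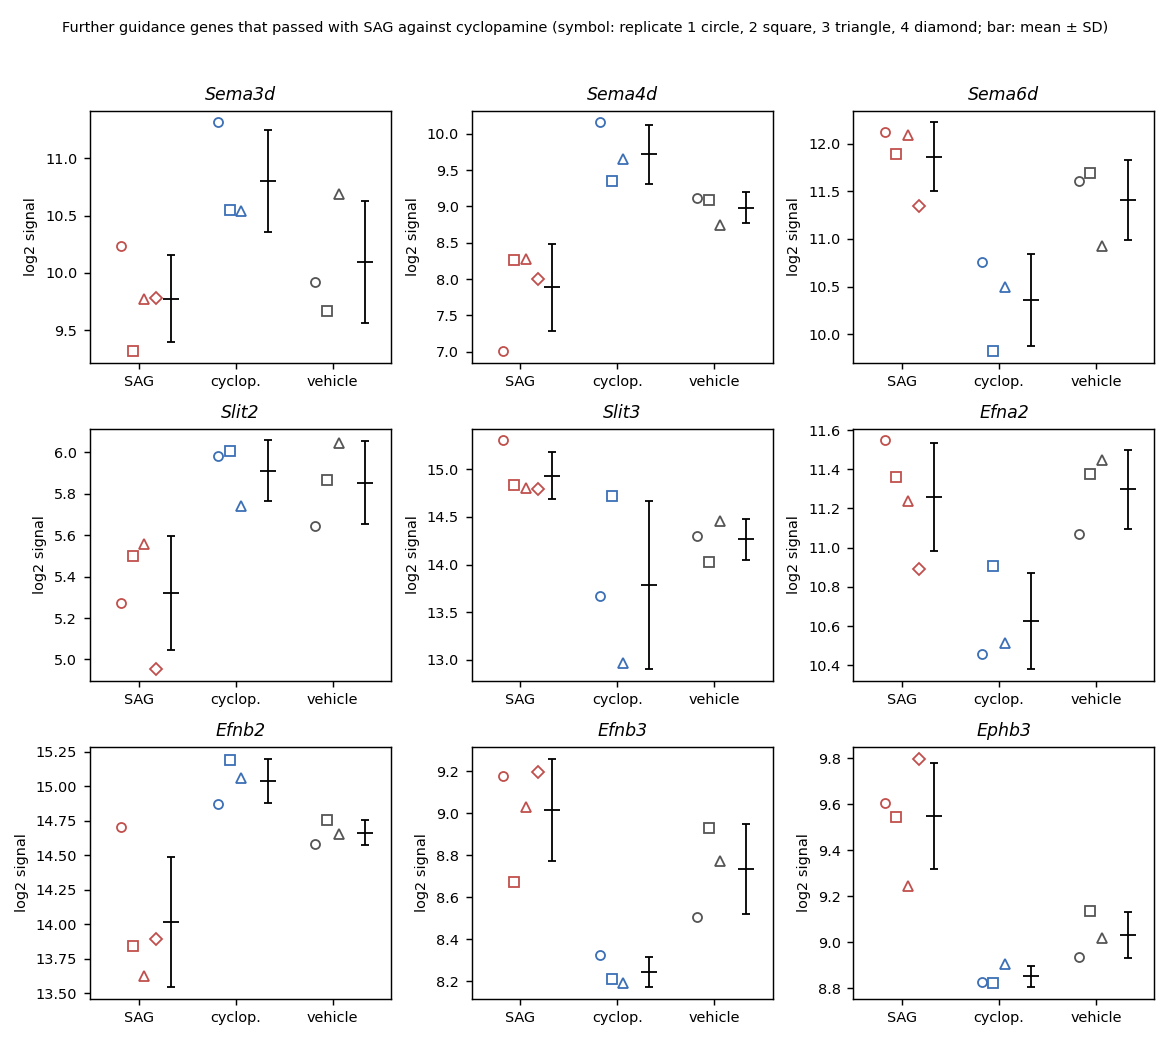
Log2 signal on each array for the 9 guidance genes that passed with SAG against cyclopamine but not with cyclopamine against vehicle, with 1 symbol shape per replicate number and a bar for the mean ± SD. Sema6d, Slit3, Efna2, Efnb3 and Ephb3 average higher with SAG, and Sema3d, Sema4d, Slit2 and Efnb2 average higher with cyclopamine (cyclop.).

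The ephrin-B ligands, transmembrane proteins that can signal in both directions, split by member. Efnb1 had 12.6, 12.8 and 12.6 on the cyclopamine arrays, against 13.6, 13.2 and 13.5 on the vehicle arrays. The cyclopamine arrays lay below all vehicle arrays (-0.76 ± 0.15, SE, limma adjusted p = 0.0159). Efnb1 had, on the SAG arrays, 13.9, 14.1, 14.1 and 14.1, all above the vehicle arrays (0.60 ± 0.14, limma adjusted p = 0.0896). With SAG against cyclopamine it was 2.58-fold higher (log2 difference 1.37 ± 0.14, limma adjusted p = 0.000147). The call of cyclopamine against vehicle was lost when replicate 1 or 3 of either of these groups was left out, with adjusted p values up to 0.0684.

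Efnb2, which marks arterial endothelium and is also expressed in epithelia, went the opposite way from Efnb1. It had 14.7, 13.8, 13.6 and 13.9 on the SAG arrays, 14.9, 15.2 and 15.1 on the cyclopamine arrays and 14.6, 14.8 and 14.7 on the vehicle arrays. All cyclopamine arrays lay above all others, and SAG replicate 1 alone among the SAG arrays fell within the vehicle range. The SAG mean was 2.03-fold lower than the cyclopamine mean (log2 difference -1.02 ± 0.22, limma adjusted p = 0.0135). This call was lost with the replicate number as a block (limma adjusted p = 0.0722). Against vehicle the differences were -0.65 ± 0.22 with SAG (limma adjusted p = 0.300) and 0.38 ± 0.24 with cyclopamine (limma adjusted p = 0.442), and the SAG difference passed without SAG replicate 1, as given above.

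Efnb3 had 9.18, 8.67, 9.03 and 9.19 on the SAG arrays, 8.32, 8.21 and 8.19 on the cyclopamine arrays and 8.51, 8.93 and 8.77 on the vehicle arrays. Cyclopamine arrays were lowest without overlap, and SAG and vehicle arrays overlapped. Relative to cyclopamine, SAG gave a signal 1.71-fold higher (log2 difference 0.78 ± 0.16, limma adjusted p = 0.00939), and cyclopamine against vehicle gave -0.49 ± 0.17 (limma adjusted p = 0.138). The Efnb3 call of SAG against cyclopamine was lost with the replicate number as a block (limma adjusted p = 0.0698). Efna2, a lipid-anchored ephrin, had 11.55, 11.36, 11.24 and 10.89 on the SAG arrays, 10.5, 10.9 and 10.5 on the cyclopamine arrays and 11.1, 11.4 and 11.4 on the vehicle arrays. SAG replicate 4 and cyclopamine replicate 2 were the arrays that met. Its signal was 1.55-fold higher with SAG against cyclopamine (log2 difference 0.63 ± 0.18, limma adjusted p = 0.0485), a call kept only without SAG replicate 4 or cyclopamine replicate 2, with adjusted p values from 0.0238 to 0.160. The other 4 ephrins, Efna1, Efna3, Efna4 and Efna5, passed in no comparison, and with cyclopamine against vehicle they ran from -0.27 (Efna3) to 0.90 (Efna5).

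Of the 13 Eph receptors, the kinases that ephrins bind, 1 fell with cyclopamine and 0 rose. Epha3, a receptor for ephrin-A ligands, had 10.1, 9.70 and 9.91 on the cyclopamine arrays, against 11.3, 11.2 and 10.9 on the vehicle arrays. The groups were well apart (-1.23 ± 0.20, SE, limma adjusted p = 0.00689). On the SAG arrays it had 11.44, 11.41, 10.98 and 10.86, overlapping the vehicle arrays, with a difference of 0.03 ± 0.19 and a 95% interval of -0.38 to 0.45 (limma adjusted p = 0.972). With SAG against cyclopamine it was 2.41-fold higher (log2 difference 1.27 ± 0.19, limma adjusted p = 0.00144). The calls of Epha3, Plxna2 and Robo2 with cyclopamine against vehicle held in all 19 alternative fits.

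Ephb3, a receptor for ephrin-B ligands, had 9.61, 9.54, 9.24 and 9.80 on the SAG arrays, 8.82, 8.82 and 8.91 on the cyclopamine arrays and 8.94, 9.13 and 9.02 on the vehicle arrays. All 4 SAG arrays lay above the vehicle arrays, and the cyclopamine arrays lay just below them. The SAG mean was 1.62-fold higher than the cyclopamine mean (log2 difference 0.70 ± 0.14, limma adjusted p = 0.00886), and SAG against vehicle gave 0.52 ± 0.14 (limma adjusted p = 0.167). The Ephb3 call of SAG against cyclopamine was lost with the replicate number as a block (limma adjusted p = 0.0556). The other 11 Eph receptors passed in no comparison in the main fit to all 10 arrays. In some alternative fits to all 10 arrays, Epha2 passed as lower with SAG against cyclopamine. These were the filter on dim probe sets, the intensity-dependent prior variance and array weights. When 1 array was left out, SAG against cyclopamine passed for Epha2 (without SAG replicate 1 or cyclopamine replicate 3), Epha5 (without SAG replicate 3) and Epha6 (without cyclopamine replicate 3). With cyclopamine against vehicle, Epha1 (0.30) and Epha2 (0.80) had non-overlapping higher arrays, and with SAG against vehicle Epha6 (-0.66) and Ephb6 (-0.59) had non-overlapping lower ones.

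With all 10 arrays, no netrin, Dcc, neogenin or Unc5 receptor passed in any comparison, and their differences from vehicle lay within -0.65 and 0.31. Ntn1, a laminin-related secreted cue, had 8.99, 8.27 and 9.68 on the cyclopamine arrays, against 9.69, 9.70 and 9.49 on the vehicle arrays. Cyclopamine replicates 1 and 2 were below the vehicle arrays and replicate 3 among them (-0.65 ± 0.32, SE, limma adjusted p = 0.314). Ntn1 had, on the SAG arrays, 9.57, 10.4, 9.58 and 9.72, with replicate 2 above the rest, and SAG against cyclopamine gave 0.84 ± 0.30 (limma adjusted p = 0.111), which passed when cyclopamine replicate 3 was left out. Ntn4, a basement membrane netrin, had 4.43, 4.85, 4.03 and 4.34 on the SAG arrays, 4.31, 4.49 and 4.28 on the cyclopamine arrays and 4.26, 4.06 and 3.99 on the vehicle arrays, all under the array's lower quartile. Its cyclopamine arrays were just above the vehicle arrays, and its SAG difference was 0.31 ± 0.18 (limma adjusted p = 0.593).

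Neo1 (neogenin), the relative of Dcc that binds netrins and repulsive guidance molecules, had 15.1, 15.1, 15.0 and 14.9 on the SAG arrays, 14.5, 14.9 and 14.6 on the cyclopamine arrays and 15.0, 14.6 and 15.1 on the vehicle arrays. Every SAG array lay above every cyclopamine array, and vehicle arrays overlapped both (SAG against cyclopamine 0.35 ± 0.15, SE, limma adjusted p = 0.185). Dcc stood near the lower quartile, averaging 5.29 ± 0.28 with SAG (SD, n = 4), 5.04 ± 0.22 with cyclopamine (SD, n = 3) and 5.31 ± 0.34 with vehicle (SD, n = 3). Unc5c, a netrin receptor for repulsion, had 7.63, 7.53, 7.68 and 7.48 on the SAG arrays, 7.66, 7.76 and 7.65 on the cyclopamine arrays and 8.22, 7.72 and 8.08 on the vehicle arrays. The SAG arrays lay below the vehicle arrays (-0.43 ± 0.14, SE, limma adjusted p = 0.257), and the cyclopamine arrays met vehicle replicate 2 (-0.32 ± 0.15, limma adjusted p = 0.282). Of the genes that share only the Unc5 letters, Unc5cl had 5.48, 6.55, 6.13 and 6.13 on the SAG arrays, 6.77, 5.69 and 6.83 on the cyclopamine arrays and 6.4995, 5.88 and 6.47 on the vehicle arrays, all overlapping, and Unc50 differed from vehicle by 0.09 ± 0.15 with SAG and by 0.06 ± 0.16 with cyclopamine.

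The spread within groups differed widely among the guidance genes. The median residual SD was 0.310 log2 units over the 66 members and 0.238 over all probe sets. Epha5 had the widest spread (1.10), with 9.44, 7.59, 5.62 and 8.08 on the SAG arrays, 6.83, 6.08 and 5.68 on the cyclopamine arrays and 6.65, 6.46 and 7.19 on the vehicle arrays. Its SAG arrays ran from below to above both other groups. Plxna4 (0.798), Ephb1 (0.771), Nrp2 (0.770), Sema3b (0.700) and Epha4 (0.554) followed. Cyclopamine replicate 2 was the array farthest from its group mean for 17 members (25.8%; 17.7% of all probe sets), and SAG replicate 1 for 13 (19.7%; 13.7% of all probe sets). On cyclopamine replicate 2, Plxna4 (7.77), Ephb1 (7.02) and Sema3b (8.43) were the lowest of all 10 arrays and Nrp2 (10.3) and Epha4 (9.61) the highest. With that array and SAG replicate 1 both left out, 11 members fell and 2 rose with cyclopamine against vehicle. Of all 22206 probe sets, 830 then fell and 761 rose, beside 654 and 482 with all arrays.

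**Figure D5:**
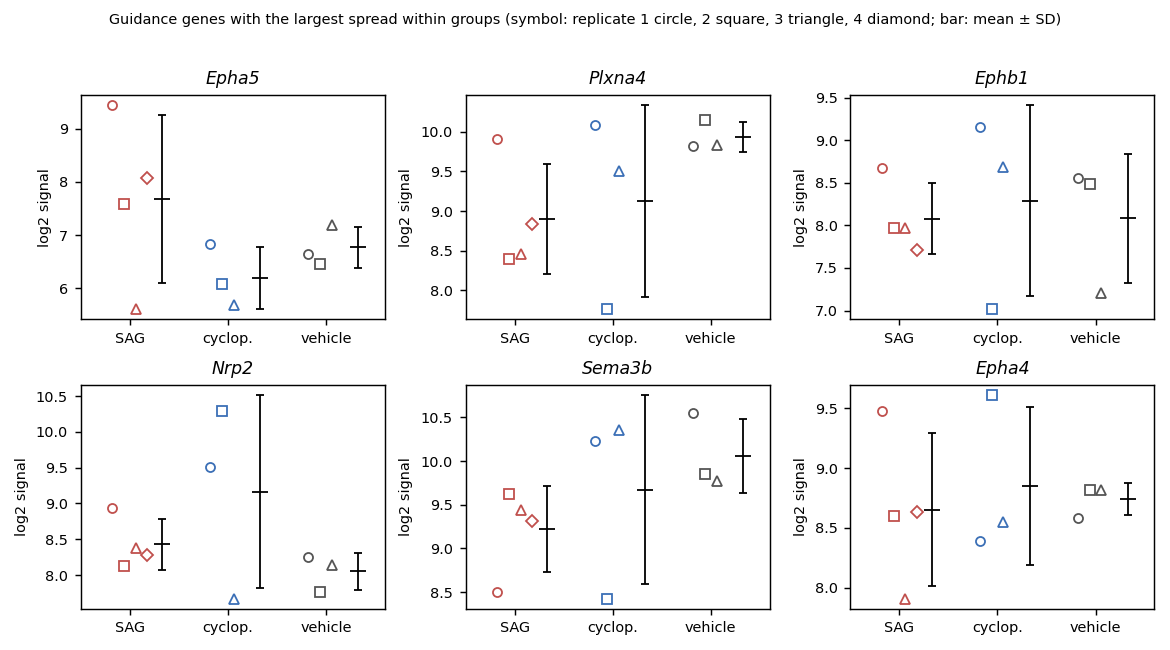
Log2 signal on each array for the 6 guidance genes with the largest residual SD within groups, with SAG, cyclopamine (cyclop.) and vehicle side by side, 1 symbol shape per replicate number and a bar for the mean ± SD. Cyclopamine replicate 2 (square) is the lowest or highest of all 10 arrays for Plxna4, Ephb1, Nrp2, Sema3b and Epha4, while Epha5 spreads over the SAG arrays from 5.62 to 9.44.

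Partner genes of the 4 receptor systems were listed separately, 87 of 92 of them measured. With SAG against vehicle 4 rose (4.60%; 0.450% of all probe sets) and 0 fell (0.279% of all probe sets). The 4 were Mical2 (4.97-fold, limma adjusted p = 0.000275), an actin-oxidising enzyme related to the plexin effector Mical1; Tiam1 (4.10-fold, limma adjusted p = 0.00126), an exchange factor for Rac; Gpc3 (2.32-fold, limma adjusted p = 0.00841), a heparan sulphate proteoglycan that also binds hedgehog; and Rgmb (1.68-fold, limma adjusted p = 0.0174), a repulsive guidance molecule that binds neogenin. The Rgmb call was lost without any 1 vehicle array or SAG replicate 3, with adjusted p values from 0.0155 to 0.0846.

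With cyclopamine against vehicle 3 partners rose (3.45%; 2.17% of all probe sets) and 7 fell (8.05%; 2.95% of all probe sets), the share of rises being near that of all probe sets. Among semaphorin and plexin partners 3 of 24 fell, Fyn (1.97-fold, limma adjusted p = 0.00435), a Src-family kinase, and Dpysl3 (2.00-fold, limma adjusted p = 0.0274) and Dpysl2 (log2 difference -0.59, limma adjusted p = 0.0363), collapsin response mediators that act on microtubules. Among Eph and ephrin partners Vav3 rose (3.97-fold, limma adjusted p = 0.00573), Sdcbp, a PDZ protein also called syntenin, rose (1.63-fold, limma adjusted p = 0.0213) and Chn1, a Rac-inactivating protein that acts below EphA4, fell (2.88-fold, limma adjusted p = 0.0106). Among Slit and Robo partners the syndecan Sdc3 fell (2.69-fold, limma adjusted p = 0.00203) and the glypican Gpc1 fell (1.70-fold, limma adjusted p = 0.0221), while the syndecan Sdc4 rose (2.04-fold, limma adjusted p = 0.00825). Gpc3 fell 2.34-fold (limma adjusted p = 0.00383), opposite to its rise with SAG. Leaving out single arrays ended the calls of Dpysl2 (6 of 10 fits, up to an adjusted p of 0.130), Dpysl3 (4 of 10, up to 0.0865), Gpc1 (5 of 10, up to 0.0785) and Sdcbp (3 of 10, up to 0.0780), vehicle replicates 1 and 2 among the arrays in each case.

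With SAG against cyclopamine 19 of the 87 partners were higher (21.8%; 5.42% of all probe sets) and 14 lower (16.1%; 5.92% of all probe sets). By list, 8 were higher and 4 lower of 24 semaphorin and plexin partners, 3 and 4 of 23 Eph and ephrin partners, 3 and 4 of 23 Slit and Robo partners, and 5 and 2 of 17 netrin, neogenin and repulsive guidance partners. The smallest adjusted p values in each list were those of Mical2 (6.98-fold higher with SAG, limma adjusted p = 4.98e-06), Tiam1 (log2 difference 2.17, limma adjusted p = 4.11e-05), Sdc3 (3.43-fold higher, limma adjusted p = 8.74e-05) and Gpc3 (5.42-fold higher, limma adjusted p = 9.99e-06). Next in the netrin list were Ntng1, a membrane-anchored netrin-G (7.55-fold higher, limma adjusted p = 0.00117), Rgmb (1.65-fold higher, limma adjusted p = 0.00214) and Cdon, a surface protein that also serves as a hedgehog co-receptor (1.93-fold lower, limma adjusted p = 0.00849). Vav3 (6.16-fold, limma adjusted p = 0.000251), Sdc4 (2.56-fold, limma adjusted p = 0.000385) and Met, the receptor for hepatocyte growth factor that also associates with plexin B (3.01-fold, limma adjusted p = 0.00131), were lower.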

How the data were processed

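The members and gene lists were chosen with earlier results of these data known. The deposited values of 22206 probe sets on 10 arrays were used as they stand and are taken as log2 signals, from their range of 2.95 to 18.8, since the sources used here state neither the scale nor the authors' normalization and summarization. Per the labels' protocols, total RNA with an RNA integrity number of at least 7 was labelled with a whole-transcript kit. Near-equal array quartiles (lower quartiles 5.06 to 5.29, upper quartiles 10.7 to 10.8) are those of values normalized between arrays. Such signals compress differences at their lower end, and precision is limited by having 3 or 4 arrays a group.

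Genes were named from the platform annotation (19572 probe sets with 1 symbol, 2634 with none) and matched to RefSeq by gene ID (66 of 66 members, 0 symbols changed). In limma 3.58.1 (R 4.3.3), 1 mean per group was fitted to all probe sets (lmFit, eBayes, 7 residual and 3.70 prior degrees of freedom). No probe set was filtered out; p-values are two-sided, were adjusted by Benjamini and Hochberg's method over the whole array and were called under 0.05. Errors of differences are moderated standard errors, intervals are 95%, and p-values set each difference against the moderated spread between these samples. The fit was tested on simulated data. Per-array values are given for members that passed, for the smallest p in a family where none passed, and for the 5 highest vehicle means; partners and markers were named by smallest p, at most 4 a list. Array groups that do not overlap were counted without a test. The spread plot, the members named beside it and non-overlapping members given by their difference were chosen after their values were seen. Replicate numbers are shared between groups, but of 9 same-number pairs 1 had a residual correlation over 0.1 (range -0.19 to 0.24), so the samples were not treated as paired. Alternatives were quantile normalization, centring, a filter on dim probe sets, averaging probe sets of a gene, leaving out arrays, array weights, a prior variance that depends on intensity, fits to only the groups compared, and the replicate number as a block.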

Additional observations from a re-analysis of the deposited data

Results flagged for a closer look

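Among the 4 SAG arrays, 1 array stood far from the other 3 for 3 of the 66 guidance genes (4.55%), by Dixon's criterion at 95%; chance flags about 1 group in 20. Plxnb3, a plexin that binds Sema5a, had 4.90 on SAG replicate 1, against 5.69, 5.77 and 5.85 on the other SAG arrays. Slit3, the Slit ligand with the highest signal, had 15.3 on SAG replicate 1, against 14.83, 14.80 and 14.79 on the others. Epha10, an Eph receptor whose kinase domain is thought inactive, had 5.74 on SAG replicate 2, against 6.31, 6.31 and 6.33 on the others. The criterion was applied to the SAG group only, and the groups of 3 arrays were not examined.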

How the results depend on the processing

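Of 98 gene results recomputed under 19 alternatives each (1862 values), 1618 kept direction and side of the threshold, 218 kept direction but no longer passed, 10 came to pass and 16 changed sign. Over the 10 fits that left out 1 array, members that rose and fell numbered 0 to 0 and 0 to 1 with SAG against vehicle, 0 to 1 and 3 to 10 with cyclopamine against vehicle, and 8 to 11 and 3 to 6 with SAG against cyclopamine. Calls over all probe sets moved as well. Rises and falls numbered 39 to 163 and 6 to 176 with SAG against vehicle, and 153 to 698 and 332 to 773 with cyclopamine against vehicle. They numbered 867 to 1302 and 949 to 1553 with SAG against cyclopamine. With cyclopamine replicate 2 and SAG replicate 1 both left out, 3 members fell with SAG (Efnb2, Plxna4 and Sema5a), 11 fell with cyclopamine and 8 were lower with SAG against cyclopamine. Of all probe sets, 142, 830 and 1485 did so in these fits, beside 62, 654 and 1315 with all arrays. With the intensity-dependent prior variance 1 member rose with SAG (122 of all probe sets) and 1 with cyclopamine (505 of all probe sets). With array weights 1 rose with SAG (166 of all probe sets). The member that rose with SAG was Efnb1 both times. In fits to the 2 groups compared 1 rose with cyclopamine (198 of all probe sets). After quantile normalization 3 members were lower with SAG against cyclopamine (1281 of all probe sets). After centring each array on its median 3 were lower as well (1193 of all probe sets). Quantile normalization also gave 3 members that rose with cyclopamine against vehicle, Plxna1 among them (509 of all probe sets rose). With the replicate number as a block, which drops SAG replicate 4, 0 rose and 0 fell with SAG, 0 rose and 5 fell with cyclopamine, and 7 were higher and 2 lower with SAG against cyclopamine; these numbers mark no known shared source. With the block, 20 of all probe sets rose and 12 fell with SAG, and 242 rose and 411 fell with cyclopamine. With SAG against cyclopamine 810 were higher and 803 lower. The members whose SAG against cyclopamine calls were lost with the block were Efnb2, Efnb3, Ephb3, Sema3d, Slit2 and Slit3. The changes of sign were of differences near 0. For Plxna3, SAG against vehicle, the difference was 0.0577 after quantile normalization, 0.0727 after centring and 0.0564 with the block, and -0.0996 to 0.0564 without single arrays. For Efna2, SAG against vehicle, it was 0.0526 after centring and 0.0844 with the block, and -0.151 to 0.0844 without single arrays. For Epha3, SAG against vehicle, it was -0.0557 with both arrays left out and -0.104 to 0.138 without single arrays. For Slit2, cyclopamine against vehicle, it was -0.0455 to 0.155 without single arrays, its lowest without vehicle replicate 1. The causes of these changes were not tested, other than fewer samples by construction. Centring moved the median of all probe sets with SAG against vehicle to 0.10. Of the members, 61 were left by the filter on dim probe sets. Epha2 and Sema6c passed with that filter and with array weights, as given above. Averaging probe sets changed no member, since each has 1.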
